A study of Mus musculus with 31 samples.

Results

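Wild-type (WT) mouse neocortex at embryonic day 13 (E13) was used to ask which mRNAs were over- or under-represented on polysomes relative to the total lysate. The comparison was defined by the sample labels alone and holds 4 of the 31 libraries in the series, 2 from the polysome pool and 2 from the total RNA of WT E13 neocortex. No measured value entered that choice, and every gene in the table was a member of the comparison. Of 23258 genes, 12123 had a mean of at least 1 FPKM over the 15 WT libraries and were tested. FPKM, fragments per kilobase of transcript scaled to the mapped fragments of the library, is a relative level within a library.

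All libraries held polyadenylated RNA from dissected neocortex lysed with 0.3% Igepal, a mild detergent, and 0.1 mg/ml cycloheximide, which holds ribosomes on the mRNA. The cleared lysate gave the total RNA. A sucrose gradient of the same kind of lysate was cut into 14 fractions, of which fractions 9 to 12 formed the polysome pool and fractions 4 to 7 the monosome pool, where subunits and lone ribosomes sediment. Further groups used here for comparison were the 2 WT E13 monosome libraries, the WT polysome and total libraries of the day of birth (P0, 3 each), and the E13 polysome and total libraries labelled HuR cKO, a conditional knockout of the RNA-binding protein HuR (3 and 2). The labels do not say whether libraries came from separate animals or litters, how many cortices each held, or which Cre driver made the cKO.

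During translation several ribosomes read an mRNA at the same time, and the more of them an mRNA carries the deeper it sediments. A long coding sequence has room for more ribosomes than a short one, and an mRNA that is stored, repressed or retained in the nucleus carries none. mRNAs for ribosomal proteins and several translation factors begin with a run of pyrimidines at the cap, the 5′ TOP motif, through which the mTOR pathway sets how many of them are translated. At this age the neocortex consists mainly of dividing radial glia with the first intermediate progenitors and neurons.

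Only FPKM values were deposited, which leaves the sequencing depth of each library unknown. The FPKM of all genes summed to 627330 and 455546 in polysome libraries 0 and 1, against 541180 and 611427 in total libraries 0 and 1, and 14943 to 16094 genes had a value above 0. The polysome libraries resembled each other less than the total libraries did. Of the tested genes, 8.55% lay more than 1 log2 unit apart between the polysome libraries, against 2.18% between the total libraries. The replicate numbers did not run in parallel across the fractions. Eif2s3y, a Y-linked gene, had 0.0492 and 6.30 FPKM in polysome libraries 0 and 1, against 3.39 and 0.0370 FPKM in total libraries 0 and 1. Dlx2, a transcription factor of the ventral forebrain, had 0.137 and 2.38 FPKM in the polysome libraries, against 1.80 and 0.0773 FPKM in the total libraries. In both genes polysome library 0 and total library 1 were the low ones, so that each fraction held 1 low and 1 high library.

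The neocortical identity of the samples was visible in their markers. The 10 dorsal cortex markers, among them Emx1, Pax6, Tbr1 and Neurod6, summed to 882 and 1277 FPKM on polysomes, against 875 and 706 FPKM in total RNA. Of the markers of other tissues only those of blood reached higher sums. The 12 ventral forebrain markers summed to 20.5 and 30.8 FPKM on polysomes, against 19.9 and 9.02 FPKM in total RNA, with 4 of the 12 at 0 in polysome library 0 and total library 1. The 10 blood markers summed to 9073 and 4395 FPKM on polysomes, against 7363 and 7530 FPKM in total RNA. The 8 choroid plexus and cortical hem markers summed to 530 and 1027 FPKM on polysomes, against 564 and 224 FPKM in total RNA. In bulk RNA, fewer cells of a type and less RNA per cell cannot be told apart.

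Polysome and total RNA differed widely. Of the 12123 genes, 1582 were higher (13%) and 970 lower (8%) on polysomes at an adjusted p under 0.05, or 21.1% in either direction, and 4360 had an unadjusted p under 0.05. The genes called higher had a median difference of 0.88 on the log2(FPKM + 1) scale and those called lower a median of -1.17. Decreases reached further than increases, with 51 genes called lower by at least 2 log2 units and 0 genes called higher by as much. In 1581 of the 1582 genes called higher both polysome values lay above both total values, and in 970 of the 970 genes called lower both lay below. Over all tested genes, both polysome values lay above both total values in 4721 and below them in 2400.

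**Figure D1:**
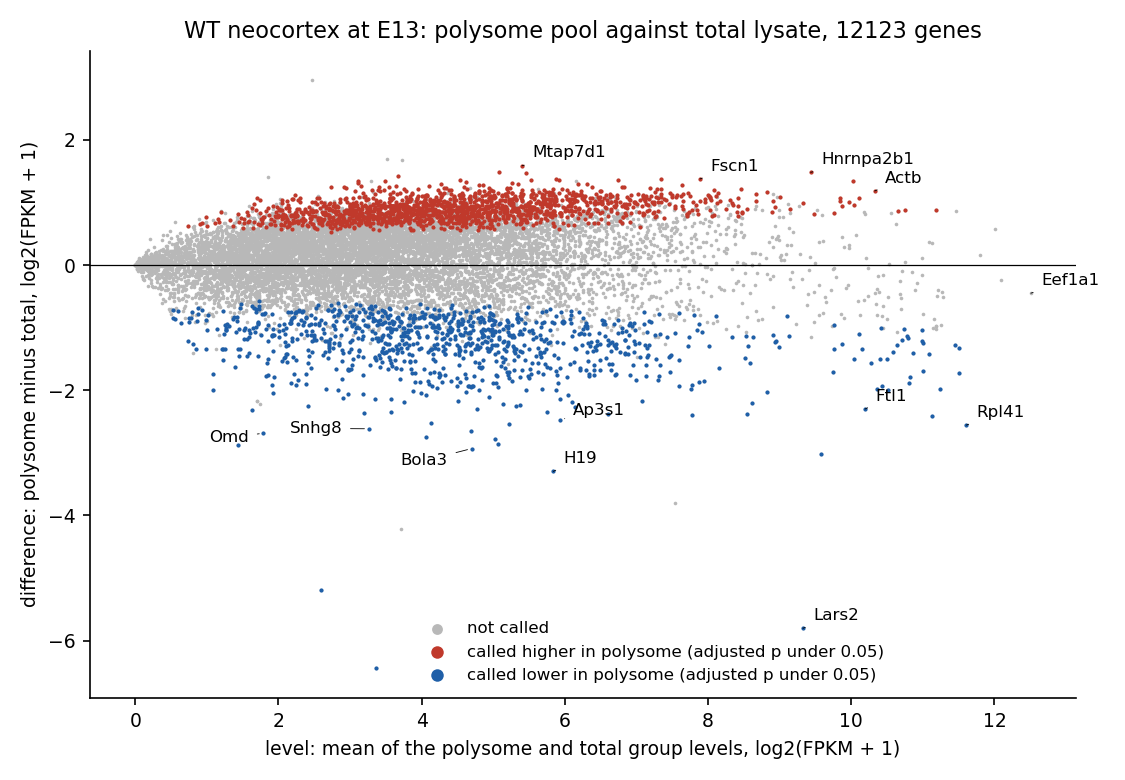
Difference between polysome and total RNA (vertical axis, log2(FPKM + 1) units) against the mean level of the groups (horizontal axis, log2(FPKM + 1)) for the 12123 tested genes in WT neocortex at E13. The 1582 genes called higher lie in a band below 2 units, while the 970 called lower reach further from 0.

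These counts depended on the scaling and on single libraries. The median difference of all tested genes was 0.19, and a median ratio rescaling of the libraries brought it to 0.06, so group medians are also given relative to the median of all genes. Genes higher on polysomes made up 62.0% of the calls as deposited and 37.8% after that rescaling (694 higher and 1142 lower). With the 4 libraries of this comparison fitted alone, 29 of 173 called genes named under the fixed rule were still called. Among them were 10 of the 12 largest decreases and 3 of the 12 largest increases. Without polysome library 0, 522 genes were higher and 816 lower, and without total library 0, 709 and 641. Without total library 1, 164 genes were higher and 308 lower. Leaving out polysome library 1 gave 1738 higher and 767 lower. Of the 174 genes named under the fixed rule and called, 101 were still called without polysome library 0 and 129 without polysome library 1. Of 173 with a value, 107 were still called without total library 0 and 60 without total library 1, and 0 changed sign.

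The 12 genes with the largest decrease under the naming rule included several short mRNAs and non-coding RNAs. The rule took only genes whose polysome and total values did not overlap. Bola3, an iron-sulphur cluster assembly factor of mitochondria (chr6:83349147-83360136), had 11.7 and 5.49 FPKM on polysomes, against 58.7 and 79.5 FPKM in total RNA. Gemin7, a subunit of the SMN complex that assembles spliceosomal snRNPs (chr7:19564946-19577595), had 13.0 and 10.0 FPKM on polysomes, against 76.3 and 92.9 FPKM in total RNA. Pkig, an inhibitor of protein kinase A (chr2:163658386-163726158), had 15 and 8.30 FPKM on polysomes, against 86.2 and 88.0 FPKM in total RNA. The log2 differences were -2.93 (SE 0.27, adjusted p = 4.33e-05) for Bola3 and -2.78 (SE 0.23, adjusted p = 1.42e-05) for Gemin7. For Pkig the difference was -2.85 (SE 0.33, adjusted p = 0.000264). Mzt1, a small component of the gamma-tubulin ring complex, had 12.3 and 6.61 FPKM on polysomes, against 56.7 and 68.4 FPKM in total RNA. Ap3s1, the small subunit of the AP-3 vesicle adaptor, had 25.4 and 24.8 FPKM on polysomes, against 139 and 147 FPKM in total RNA. The log2 differences were -2.65 (SE 0.34, adjusted p = 0.000323) for Mzt1 and -2.47 (SE 0.21, adjusted p = 1.42e-05) for Ap3s1. Tmem134 fell by 2.75 and Omd, an extracellular matrix proteoglycan, by 2.69 on the log2 scale. Omd was nearly absent from polysomes, at 0.449 and 0.279 FPKM, against 7.93 and 7.62 FPKM in total RNA. The calls of these 7 genes remained without each library in turn.

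Lars2, the mitochondrial leucyl-tRNA synthetase, had the largest decrease of these 12 genes, and its values varied widely between libraries of 1 fraction. It had 169 and 20.3 FPKM on polysomes, against 1611 and 7000 FPKM in total RNA, a log2 difference of -5.80 (SE 1.37, adjusted p = 0.0102). The call was lost without polysome library 1 and without total library 1. Rn45s, the precursor of ribosomal RNA, named after its value was seen, moved in the same direction, with 478 and 111 FPKM on polysomes, against 1336 and 2624 FPKM in total RNA (log2 difference -3.02, SE 0.98, adjusted p = 0.0402). Whether ribosomal RNA fragments contributed to the Lars2 values was not tested.

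The 12 genes with the largest increase rose by 1.36 to 1.59 log2 units. Hnrnpa2b1, an abundant hnRNP protein of nuclear RNA (chr6:51460932-51469894), had 1279 and 1020 FPKM on polysomes, against 341 and 488 FPKM in total RNA. Mtap7d1, a microtubule-associated protein (chr4:126232167-126256343), had 70.1 and 72.0 FPKM on polysomes, against 30.2 and 17.4 FPKM in total RNA. Fscn1, which bundles actin filaments in growth cones (chr5:142960343-142973185), had 423 and 336 FPKM on polysomes, against 169.6 and 123 FPKM in total RNA. As the naming rule requires, the lower polysome value exceeded the higher total value in all 3 genes. The log2 differences were 1.48 (SE 0.24, adjusted p = 0.00142) for Hnrnpa2b1 and 1.59 (SE 0.28, adjusted p = 0.00233) for Mtap7d1. For Fscn1 the difference was 1.38 (SE 0.30, adjusted p = 0.00694). The RNA-binding proteins Rbm42 and Raver1 rose by 1.48 and 1.37, the ribosomal RNA processing factor Rrp1 by 1.38, the kinase Wnk2 by 1.43 and the kinesin Kif21b by 1.36. Tmem132a, Cbr1, Clip3 and Dnajc17 complete the 12. Without total library 1, 7 of the 12 were still called, and Fscn1, Rbm42, Wnk2, Tmem132a and Kif21b were not.

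**Figure D2:**
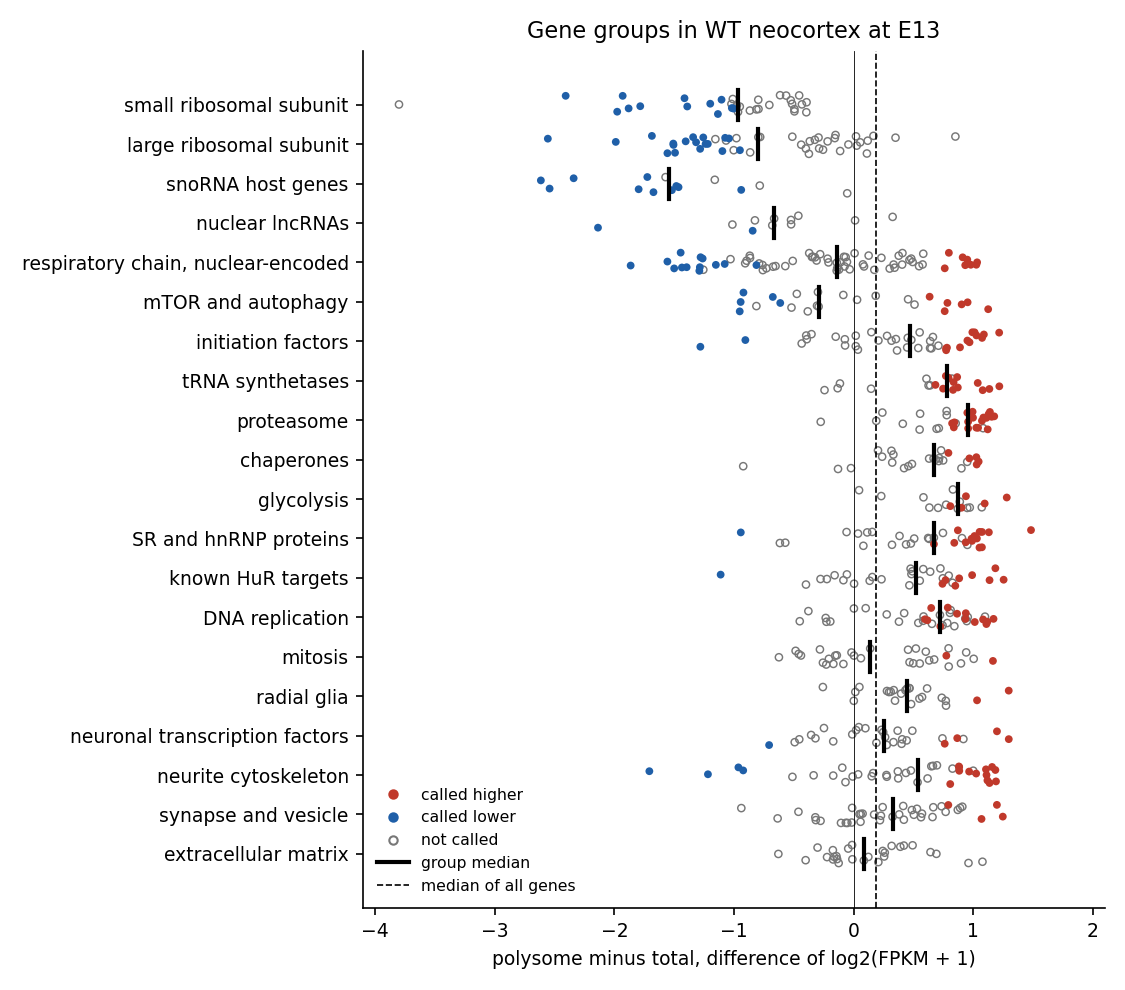
Polysome minus total difference (log2(FPKM + 1) units) of every tested member of 20 gene groups at E13, with the group median as a bar and the median of all genes, 0.19, as a dashed line. The ribosomal and snoRNA host groups lie to the left and the proteasome, synthetase and glycolysis groups to the right.

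Ribosomal protein mRNAs were under-represented on polysomes. Rps12, of the small subunit (chr10:23785183-23787275), had 1654 and 472 FPKM on polysomes, against 4758 and 4634 FPKM in total RNA. Rplp1, a protein of the large subunit stalk, had 969.8 and 531 FPKM on polysomes, against 2930 and 2775 FPKM in total RNA. Rpl41, the smallest protein of the large subunit, had 2588 and 451 FPKM on polysomes, against 5751 and 7050 FPKM in total RNA. Polysome library 1 was the lower one in each case, and neither polysome value reached a total value. The log2 differences were -2.41 (SE 0.43, adjusted p = 0.00279) for Rps12, -1.99 (SE 0.36, adjusted p = 0.00281) for Rplp1 and -2.56 (SE 0.55, adjusted p = 0.0069) for Rpl41. Of these calls only that of Rpl41 was lost when a library was left out, total library 1.

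Pyrimidine runs near the annotated transcript start were found in some of these mRNAs, which are known for such a run at the cap. The windows below, from RefSeq on GRCm38.p6, span 15 bases before to 15 bases from the annotated transcript start, with runs of at least 8 consecutive C or T that start with C in capitals. The first 5 are ribosomal protein genes called lower that hold a run. Next come 2 called lower without a run in the window, then the proteasome genes Psmd2 and Psmc6, which were called higher. The Rps12 window ends in a shorter stretch of C and T, and the bases beyond the window were not read. Within each kind the genes with the smallest adjusted p are shown.
Rpl35a: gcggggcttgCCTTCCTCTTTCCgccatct
Rplp2: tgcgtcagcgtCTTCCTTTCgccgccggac
Rpl39: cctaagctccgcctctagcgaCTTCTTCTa
Rpl38: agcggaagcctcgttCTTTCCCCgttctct
Rpl35: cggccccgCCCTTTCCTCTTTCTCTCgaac
Rps12: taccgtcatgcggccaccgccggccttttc
Rps21: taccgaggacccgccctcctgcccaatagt
Psmd2: gaggacaacgcgcgtggccttctgggaaaa
Psmc6: gCCCTTCCCggcatcccctatgagcgacgg
The windows lie at chr16:33056467-33056496 (plus strand) for Rpl35a, chr7:141447636-141447665 (plus) for Rplp2, chrX:37085208-37085237 (minus) for Rpl39, chr11:114668565-114668594 (plus) for Rpl38 and chr2:39005117-39005146 (minus) for Rpl35. Those without a run in the window lie at chr10:23787195-23787224 (minus) for Rps12 and chr2:180257364-180257393 (plus) for Rps21. The proteasome windows lie at chr16:20651637-20651666 (plus) for Psmd2 and chr14:45329809-45329838 (plus) for Psmc6. A run was found in 26 of 59 ribosomal protein genes with a RefSeq window (44.07%). It was found in 12.35% of the 9504 tested genes with a window and in 10.78% of all 27025 genes with one. A gene counted if any of its annotated starts held a run, and the start with the longest run is shown. A run could lie anywhere in the window, as in Psmc6, where it lies before the start. These shares are therefore not shares of runs at the cap. Among the ribosomal protein genes, 8 of 22 called lower and 18 of 37 not called held a run in this window.

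Of the 33 small subunit genes, 12 were lower on polysomes and 0 higher, against 8% and 13% of all genes. Their median difference was -0.97, or -1.16 relative to the median of all genes. No member had a positive difference. In 24 of the 33 both polysome values lay below both total values, as in 2400 of all 12123 genes. Of the 47 large subunit genes, 18 were lower and 0 higher, with a median of -0.80 (-0.99 relative to all genes). The called large subunit genes included Rpl12 (-1.56), Rplp0 (-1.49), Rpl35a (-1.51) and Rplp2 (-1.51). The counts moved strongly with single libraries: 25, 3, 4 and 3 small subunit genes were lower without polysome 0, polysome 1, total 0 and total 1, and 23, 3, 5 and 1 large subunit genes. The small subunit genes made up 8.81% and 5.66% of the FPKM sum of polysome libraries 0 and 1, against 13.3% and 13.0% of total libraries 0 and 1. For the large subunit the shares were 10.9% and 7.59% on polysomes, against 15.1% and 14.7% in total RNA. Rps27 and Rpl26, picked out here after their values were seen, stood apart. Rps27 had 248 and 0.469 FPKM on polysomes, against 199 and 354 FPKM in total RNA, so its groups overlapped and its difference of -3.80 was not called (adjusted p = 0.11). Rpl26 had 186 and 147 FPKM on polysomes, against 66.9 and 124 FPKM in total RNA (log2 difference 0.85, adjusted p = 0.112). Ribosomal protein genes have many processed pseudogenes, so the values of single members are uncertain.

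Other components of the translation apparatus went in both directions. Among 16 elongation, termination and poly(A)-binding genes, 3 were higher and 3 lower, against 13% and 8% of all genes. Pabpc1, the main cytoplasmic poly(A)-binding protein, had 78.6 and 73.8 FPKM on polysomes, against 181 and 221 FPKM in total RNA. Tpt1, encoding the translationally controlled tumour protein, had 2303 and 1021 FPKM on polysomes, against 4865 and 5312 FPKM in total RNA. Eef2k, the kinase that inhibits elongation factor 2, had 20.6 and 16.2 FPKM on polysomes, against 8.63 and 6.75 FPKM in total RNA. The libraries did not overlap in any of the 3 genes, with differences of -1.38 (SE 0.31, adjusted p = 0.00769) for Pabpc1, -1.73 (SE 0.37, adjusted p = 0.0068) for Tpt1 and 1.16 (SE 0.20, adjusted p = 0.00237) for Eef2k. Pabpc4 also fell, by 0.89, and Npm1 and Gspt1 rose, by 1.07 and 0.60. Without total library 1 none of the 3 decreases was called.

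Of 40 initiation factors and their regulators, 12 were higher and 2 lower, against 13% and 8% of all genes. Their median difference was 0.47 (0.28 relative to all genes). Eif4a1, the RNA helicase of the cap-binding complex, had 2091 and 1173 FPKM on polysomes, against 659 and 838 FPKM in total RNA. Eif3b, a scaffold subunit of the initiation factor that joins the small subunit, had 192 and 103 FPKM on polysomes, against 62.4 and 68.9 FPKM in total RNA. Polysome library 0 was the higher one in both, without overlap, and the differences were 1.07 (SE 0.27, adjusted p = 0.0126) for Eif4a1 and 1.09 (SE 0.26, adjusted p = 0.0114) for Eif3b. The 2 members called lower, named after their values were seen, were both repressors of the cap-binding factor, Eif4ebp1 (-1.28, adjusted p = 0.0194) and Eif4ebp2 (-0.91, adjusted p = 0.0169). The count of 12 higher became 1, 15, 1 and 0 without polysome 0, polysome 1, total 0 and total 1.

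Aminoacyl-tRNA synthetases, which charge tRNAs with amino acids, were over-represented on polysomes. Of 20 genes, 12 were higher and 0 lower, against 13% and 8% of all genes. Their median difference was 0.78 (0.59 relative to all genes). Farsa, a subunit of the phenylalanyl-tRNA synthetase, had 111 and 78.2 FPKM on polysomes, against 38.2 and 40.9 FPKM in total RNA. Aars, the alanyl-tRNA synthetase, had 33.1 and 32.1 FPKM on polysomes, against 17.8 and 16.9 FPKM in total RNA. Both genes were well separated, with differences of 1.22 (SE 0.22, adjusted p = 0.0031) for Farsa and 0.87 (SE 0.19, adjusted p = 0.00768) for Aars. Hars, Yars, Cars and Wars rose by 0.87 to 1.14. Without polysome 0, polysome 1, total 0 and total 1, the synthetases called higher numbered 3, 13, 2 and 6.

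The proteasome, the protease complex that degrades ubiquitin-tagged proteins, had the highest median difference of the groups in the plot of gene groups. Of its 31 subunit genes, 19 were higher and 0 lower, against 13% and 8% of all genes. The subunit median was 0.96 (0.77 relative to all genes). Psmd2, a subunit of the regulatory particle (chr16:20651652-20663414), had 239 and 185 FPKM on polysomes, against 101 and 109 FPKM in total RNA. Psmc6, an ATPase of its base, had 147 and 137 FPKM on polysomes, against 64.9 and 82.2 FPKM in total RNA. Psma2, of the core particle, had 472 and 316 FPKM on polysomes, against 176 and 212 FPKM in total RNA. No polysome value of the 3 genes fell within the total values, and their differences were 1.0 (SE 0.20, adjusted p = 0.00521) for Psmd2, 0.95 (SE 0.20, adjusted p = 0.00662) for Psmc6 and 0.99 (SE 0.23, adjusted p = 0.00923) for Psma2. In 28 of the 31 subunits both polysome values lay above both total values, as in 4721 of all 12123 genes. Without polysome 0, polysome 1, total 0 and total 1, 2, 19, 2 and 6 subunits were called higher. Proteasome genes made up 1.62% and 1.49% of the FPKM sum on polysomes, against 0.782% and 0.855% in total RNA.

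Chaperones and glycolysis genes had median differences above that of all genes. Of all genes, 13% were called higher and 8% lower. Of 25 chaperones and folding enzymes, 5 were higher and 0 lower, with a median of 0.67 (0.48 relative to all genes). All 5 belong to 1 complex, the subunits Cct3, Cct5, Cct6a, Cct7 and Cct8 of the cytosolic chaperonin that folds actin and tubulin. Cct8 had 448 and 238 FPKM on polysomes, against 135 and 189 FPKM in total RNA, a non-overlapping difference of 1.03 (SE 0.27, adjusted p = 0.0169). Of 17 glycolysis genes 5 were higher and 0 lower, with a median of 0.87 (0.68 relative to all genes). Aldoc, the brain aldolase, had 304 and 308 FPKM on polysomes, against 149.6 and 105 FPKM in total RNA, a difference of 1.28 (SE 0.30, adjusted p = 0.01). Pfkm, Pkm2, Ldhb and Eno1 rose by 0.81 to 1.10. Without polysome 0, polysome 1, total 0 and total 1, the chaperone genes called higher numbered 1, 12, 0 and 1, and the glycolysis genes 2, 12, 3 and 0.

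Nuclear-encoded subunits of the respiratory chain were called in both directions, 8 higher and 13 lower of 71, against 13% and 8% of all genes, with a median of -0.14. The lower ones were small subunits. Ndufb9, of complex I, had 99.1 and 82.3 FPKM on polysomes, against 229 and 289 FPKM in total RNA. Cox8a, of cytochrome c oxidase, had 213 and 56.9 FPKM on polysomes, against 385 and 425 FPKM in total RNA. All polysome values were lower, and the differences were -1.50 (SE 0.27, adjusted p = 0.0028) for Ndufb9 and -1.86 (SE 0.41, adjusted p = 0.00765) for Cox8a. Atp5e, Ndufa2, Ndufa6 and Ndufa1 fell by 1.28 to 1.56. Among the higher members, Atp5b, the catalytic subunit of ATP synthase, had 1715 and 965 FPKM on polysomes, against 569 and 693 FPKM in total RNA. Sdha, the flavoprotein of succinate dehydrogenase, had 84.9 and 66.5 FPKM on polysomes, against 41.2 and 44.6 FPKM in total RNA. Both genes, named after their values were seen, separated the groups, by 1.03 (SE 0.30, adjusted p = 0.0276) for Atp5b and 0.80 (SE 0.22, adjusted p = 0.0222) for Sdha. The split into higher and lower members was 0 and 15, 10 and 3, 1 and 5, and 0 and 1 without polysome 0, polysome 1, total 0 and total 1.

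Several mRNAs with well-studied translational control stood among the called genes, where 13% of all genes were higher and 8% lower. The ferritin subunits Ftl1 and Fth1, whose mRNAs carry the iron-responsive element that blocks translation when iron is scarce, were the 2 called genes of 7 with such elements or roles. Ftl1 had 512 and 542 FPKM on polysomes, against 2610 and 2585 FPKM in total RNA. Fth1 had 246 and 202 FPKM on polysomes, against 839 and 985 FPKM in total RNA. The replicates were close and the groups far apart, with differences of -2.30 (SE 0.37, adjusted p = 0.0015) for Ftl1 and -2.02 (SE 0.36, adjusted p = 0.00259) for Fth1, and both calls remained without each library in turn. None of the other 5 was called, among them Slc40a1 with a difference of -0.47 and Tfrc with -0.37 (adjusted p = 0.183 and 0.45).

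Of 14 selenoprotein genes, which decode a stop codon as selenocysteine, 3 were lower and 0 higher, against 8% and 13% of all genes. Sepw1 had 257 and 89.4 FPKM on polysomes, against 783 and 802 FPKM in total RNA, and Gpx4, a lipid peroxidase, had 111 and 57.8 FPKM on polysomes, against 284 and 296 FPKM in total RNA. Neither gene overlapped, with differences of -2.38 (SE 0.40, adjusted p = 0.002) for Sepw1 and -1.84 (SE 0.31, adjusted p = 0.0019) for Gpx4. The third was 2810407C02Rik (-1.08, adjusted p = 0.0151). Its call was lost without polysome library 1 or total library 1, while those of Sepw1 and Gpx4 remained without each library in turn. In the polyamine pathway, Azin1, which sequesters antizyme, rose by 0.82 (SE 0.19, adjusted p = 0.00894). The antizyme Oaz1, made by a frameshift, fell by 1.15 (SE 0.36, adjusted p = 0.0339). Azin1 and Oaz1 lost their calls without total library 0 or total library 1, and Oaz1 also without polysome library 1. Odc1, the enzyme both act on, had 171 and 191 FPKM on polysomes, against 258 and 452 FPKM in total RNA, and was not called (-0.91, adjusted p = 0.0503).

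Among 11 stress-response mRNAs known for upstream open reading frames, 2 were higher and 2 lower, against 13% and 8% of all genes. Atf4, the transcription factor whose upstream frames keep it off in unstressed cells, had 101 and 49.9 FPKM on polysomes, against 126 and 150.2 FPKM in total RNA. Its libraries did not overlap (-0.94, SE 0.31, adjusted p = 0.0403). Ddit3 also fell, by 0.81, while Ddit4 and Asns rose by 0.86 and 1.04. All 4 calls were lost without total library 1. In the mTOR and autophagy group, 6 of 23 genes were higher and 5 lower, against the same 13% and 8%. The higher ones were Sqstm1 (0.95), Ulk1 (1.13), Atg7 (0.76), Mlst8 (0.90), Rptor (0.78) and Tsc2 (0.64), and the lower ones included Akt1 (-0.95), Becn1 (-0.68) and Ulk2 (-0.61), named after their values were seen. Akt1 had 84.7 and 84.8 FPKM on polysomes, against 165 and 165 FPKM in total RNA. Without total library 1 none of the 11 was called.

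**Figure D3:**
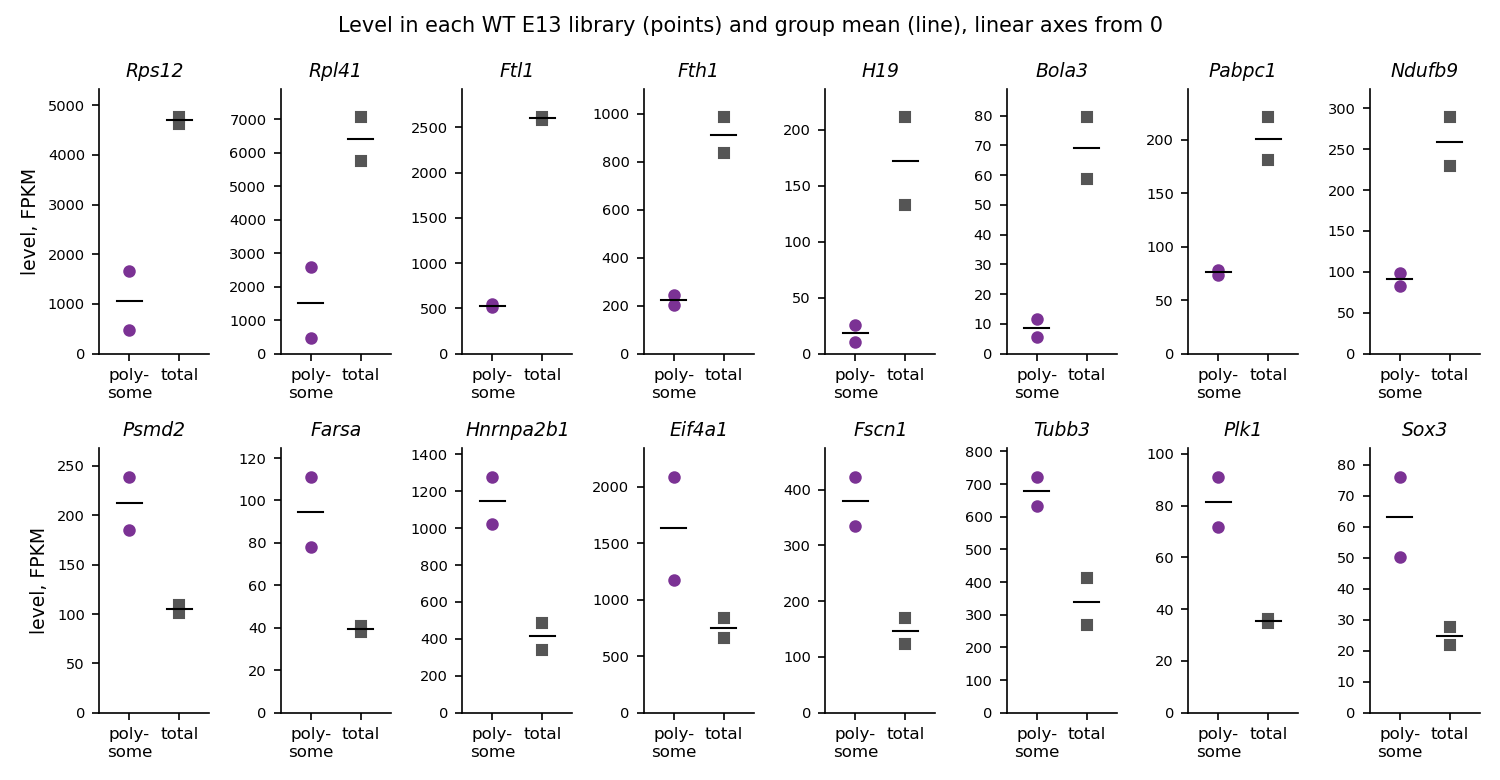
FPKM in each polysome (left) and total (right) library of WT neocortex at E13 for 16 genes, with the group mean as a line and linear axes that start at 0. In the upper 8 genes, from Rps12 to Ndufb9, both polysome values lie below both total values, and in the lower 8, from Psmd2 to Sox3, both lie above.

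RNAs without a long reading frame were low on polysomes. Of 247 tested long non-coding RNAs, 79 were lower (32%) and 2 higher, with a median difference of -0.54. The 2 higher entries, Cct6a and Spata5l1, looked up after the count was seen, carry names of protein-coding genes and an annotation as processed transcripts. The same holds among the lower entries for Tmem134 (-2.75) and Ptpmt1 (-1.46), also looked up afterwards. Of 11654 protein-coding genes 859 were lower (7.37%) and 1573 higher (13.5%), with a median of 0.21. H19, an imprinted non-coding RNA (chr7:142575529-142578143), had 25.9 and 9.96 FPKM on polysomes, against 133 and 211 FPKM in total RNA. Snhg8, a host of small nucleolar RNAs, had 4.63 and 1.44 FPKM on polysomes, against 21.6 and 21.8 FPKM in total RNA. Rian, an imprinted nuclear RNA, had 6.54 and 3.07 FPKM on polysomes, against 24.6 and 22.2 FPKM in total RNA. All 3 separated the groups, with differences of -3.30 (SE 0.52, adjusted p = 0.00117) for H19, -2.62 (SE 0.33, adjusted p = 0.000298) for Snhg8 and -2.14 (SE 0.43, adjusted p = 0.00501) for Rian.

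snoRNA host genes have introns that hold snoRNAs, and their spliced transcripts mostly lack a conserved reading frame. Of 14 members, 10 were lower and 0 higher, against 8% and 13% of all genes. Their median was -1.55 (-1.74 relative to all genes). Snhg12 and Snhg6 fell by 1.73 and 2.54. The count was 11, 5, 8 and 3 without polysome 0, polysome 1, total 0 and total 1. Of 7 tested cytoplasmic long non-coding RNAs, 4 were lower (1700020I14Rik, 2410004N09Rik, H19 and 2610017I09Rik), and these 4 calls remained without each library in turn. Tug1, at 42.9 and 42.9 FPKM on polysomes, against 47.2 and 48.4 FPKM in total RNA, was not called (-0.15, adjusted p = 0.639). Of 11 tested nuclear long non-coding RNAs only Rian and Neat1 were lower, and Neat1 (-0.84, adjusted p = 0.0483) was lost without each of the 4 libraries. Malat1 had 14.3 and 1.11 FPKM on polysomes, against 9.57 and 11.4 FPKM in total RNA, so that polysome library 0 exceeded both total libraries and the gene was not called (-1.01, adjusted p = 0.278). Because the library kit loses strand information, reads of a gene and of an overlapping antisense gene cannot be told apart.

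Coding length went along with the position on the gradient. Over 11655 genes with an annotated coding sequence, Spearman's rank correlation between coding length and the polysome minus total difference was 0.27. The genes share the 4 libraries and are not independent, so no test is given. The genes were cut into 10 bins by coding length. The shortest bin, with coding sequences of 93 to 525 nucleotides, had a median difference of -0.46, and 327 of its 1169 genes were lower and 11 higher. The median was -0.03 in bin 2, 0.18 in bin 3, and between 0.33 and 0.35 in bins 6 to 9. In the longest bin, 3417 to 23151 nucleotides, it was 0.17, with 140 genes higher and 8 lower. Genes called lower had a median coding length of 636 nucleotides, against 1596 for genes called higher.

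**Figure D4:**
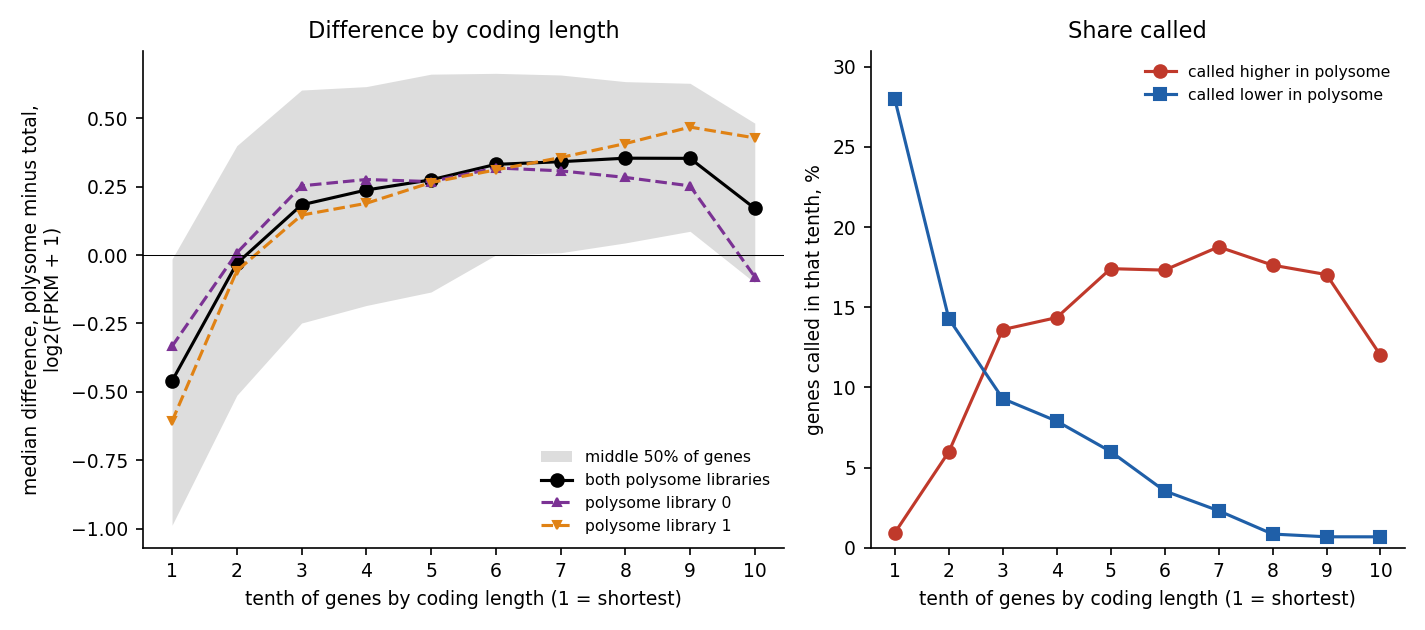
Left, median polysome minus total difference (log2(FPKM + 1) units) in each of 10 bins of genes by coding length, with the middle 50% of genes shaded and the medians of polysome libraries 0 and 1 taken alone as dashed lines. Right, the percentage of genes in each bin called higher or lower. The shortest bin lies at -0.46, and the polysome libraries part in the longest bin, at -0.08 and 0.43.

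The relation differed between the polysome libraries. Against both total libraries, the rank correlation was 0.11 for polysome library 0 alone and 0.43 for polysome library 1 alone. In the longest bin the median was -0.08 in polysome library 0 and 0.43 in polysome library 1. Base composition and untranslated regions gave rank correlations with the difference of 0.14 for the GC content of the coding sequence, 0.16 for that of the 3′ UTR, -0.12 for that of the 5′ UTR and -0.06 for the length of the 3′ UTR. For polysome library 0 alone, the GC content of the coding sequence (0.15) and of the 3′ UTR (0.18) had larger values than coding length (0.11). Several groups lay apart from genes of like length. Of 31 proteasome genes, 30 lay above the median of their own length bin, by a median of 0.77. Of 33 small subunit ribosomal genes, 32 lay below theirs, by a median of -0.64, and 40 of 47 large subunit genes lay below. A list of 147 zinc finger genes of the Zfp family, of which 117 were tested, had a median coding length of 1736 nucleotides. Of the 116 with a length, 106 lay below the median of their bin, by a median of -0.53. Of the 117, 4 were called higher and 3 lower, fewer in both directions than the 13% and 8% of all genes. The higher ones were Zfp212 (0.76), Zfp668 (0.70), Zfp516 (0.61) and Zfp647 (0.59). The lower ones, named after their values were seen, were Zfp810 (-0.95), Zfp617 (-0.95) and Zfp597 (-0.94). The counts higher and lower were 0 and 0, 0 and 10, 1 and 2, and 0 and 0 without polysome 0, polysome 1, total 0 and total 1. The median of the tested Zfp genes, -0.19, was 0.088 without polysome library 0 and -0.46 without polysome library 1.

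Splicing factors held more calls on the higher side than on the lower. Of 33 SR and hnRNP splicing genes, 14 were higher and 1 lower, with a median of 0.67 (0.48 relative to all genes). Hnrnpa3 had 257 and 217 FPKM on polysomes, against 91.7 and 126 FPKM in total RNA. Hnrnpm had 168 and 229 FPKM on polysomes, against 96.5 and 94.3 FPKM in total RNA. Ptbp1, the repressor of neuronal exons in progenitors, had 256 and 165 FPKM on polysomes, against 95.4 and 102 FPKM in total RNA. All 3 were non-overlapping, by 1.13 (SE 0.22, adjusted p = 0.00387) for Hnrnpa3, 1.03 (SE 0.20, adjusted p = 0.00428) for Hnrnpm and 1.05 (SE 0.27, adjusted p = 0.0153) for Ptbp1. Srsf9, named after its value was seen, was the 1 lower member (-0.94, adjusted p = 0.0362). The splicing genes called higher numbered 3, 17, 3 and 4 without polysome 0, polysome 1, total 0 and total 1. Of 40 other RNA-binding proteins, 7 were higher and 1 lower, Nova1 (-0.71, adjusted p = 0.0352, named after its value was seen), near the background of 13% and 8%. Fxr2, a relative of the fragile X protein, had 59.7 and 54.0 FPKM on polysomes, against 27.1 and 24.5 FPKM in total RNA (1.11, SE 0.20, adjusted p = 0.00256). Nova2, Khsrp, Stau1, Tardbp and G3bp1 rose by 0.81 to 1.11.

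Elavl1, which encodes HuR (chr8:4285382-4325413), had 60.6 and 42.4 FPKM on polysomes, against 28.5 and 39.5 FPKM in total RNA. The polysome values were the higher ones, but the difference of 0.58 (SE 0.37) was not called (adjusted p = 0.279). HuR binds U-rich and AU-rich 3′ UTRs and stabilizes or controls the translation of its targets. Of 30 mRNAs commonly listed as HuR targets, 8 were higher and 1 lower, against 13% and 8% of all genes. Their median was 0.52 (0.33 relative to all genes). Trp53 had 224 and 131 FPKM on polysomes, against 69.6 and 72.8 FPKM in total RNA (1.25, SE 0.24, adjusted p = 0.00406). Actb had 2146 and 1728 FPKM on polysomes, against 948 and 755 FPKM in total RNA (1.19, SE 0.32, adjusted p = 0.0198). Gap43, of the growth cone, had 73.6 and 148 FPKM on polysomes, against 63.9 and 34.5 FPKM in total RNA (1.14, SE 0.33, adjusted p = 0.025). No library of 1 fraction reached into the other in these 3 genes. Xiap, named after its value was seen, was the 1 lower member (-1.11, adjusted p = 0.0068). The targets called higher numbered 5, 9, 6 and 1 without polysome 0, polysome 1, total 0 and total 1, and 2 after median ratio rescaling.

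Genes of dividing cells were described in separate lists for DNA replication and mitosis, where 13% of all genes were higher and 8% lower. Of 37 DNA replication genes, 13 were higher and 0 lower, with a median of 0.73 (0.53 relative to all genes). Cdt1, which licenses replication origins, had 39.0 and 29.6 FPKM on polysomes, against 15.3 and 14.9 FPKM in total RNA. Fen1, which trims Okazaki fragments, had 138 and 73.0 FPKM on polysomes, against 39.4 and 49.2 FPKM in total RNA. Mcm5, a subunit of the replicative helicase, had 180.4 and 85.3 FPKM on polysomes, against 48.5 and 69.5 FPKM in total RNA. None of the 3 overlapped, and the differences were 1.12 (SE 0.26, adjusted p = 0.00876) for Cdt1, 1.17 (SE 0.30, adjusted p = 0.0146) for Fen1 and 1.08 (SE 0.28, adjusted p = 0.0162) for Mcm5. The count of 13 became 1, 16, 1 and 1 without polysome 0, polysome 1, total 0 and total 1. Of 31 mitosis genes only Plk1 (1.16, SE 0.26, adjusted p = 0.00839) and Kif20a (0.78, SE 0.21, adjusted p = 0.0173) were higher and 0 were lower. Without polysome library 1, 6 mitosis genes were higher and 2 lower. The median of the 31 genes over all libraries, 0.14, was below that of all genes and changed sign, to -0.02, after median ratio rescaling. The calls of Plk1 and Kif20a were lost without polysome library 0, that of Plk1 also without total library 1 and that of Kif20a also without total library 0. Plk1, a mitotic kinase, had 91.2 and 71.8 FPKM on polysomes, against 34.7 and 36.3 FPKM in total RNA.

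Cell identity genes of the early cortex showed few calls, where 13% of all genes were higher and 8% lower. Of 23 radial glia genes, 2 were higher and 0 lower, with a median of 0.45. Glul, the glutamine synthetase of radial glia, had 117 and 88.7 FPKM on polysomes, against 47.5 and 51.1 FPKM in total RNA. Sox3, a neural progenitor factor, had 76.2 and 50.1 FPKM on polysomes, against 27.7 and 21.8 FPKM in total RNA. Both groups were separate, by 1.03 (SE 0.22, adjusted p = 0.00663) for Glul and 1.30 (SE 0.32, adjusted p = 0.0117) for Sox3, of which Sox3 was not called without polysome library 0 or total library 1. Sox2 had 112 and 92.8 FPKM on polysomes, against 50.4 and 70.2 FPKM in total RNA, and Vim had 673 and 647 FPKM on polysomes, against 423 and 352 FPKM in total RNA. Neither passed the test, with differences of 0.77 for each and adjusted p-values of 0.0977 for Sox2 and 0.117 for Vim.

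Among 14 intermediate progenitor genes, Neurog1 was higher and Mfng lower, against 13% and 8% of all genes. Mfng, a glycosyltransferase that modifies Notch, had 34.8 and 25.6 FPKM on polysomes, against 83.4 and 76.1 FPKM in total RNA. Neurog1, a proneural factor, had 16.3 and 15.1 FPKM on polysomes, against 9.42 and 6.30 FPKM in total RNA. Mfng fell by 1.39 (SE 0.27, adjusted p = 0.00408), which held without each library, and Neurog1 rose by 0.94 (SE 0.19, adjusted p = 0.00548), which did not hold without total library 1. Eomes, the defining factor of these cells, had 52.9 and 98.5 FPKM on polysomes, against 52.6 and 33.8 FPKM in total RNA, and was not called (0.76, adjusted p = 0.244).

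Of 28 cortical neuron transcription factors 4 were higher and 1 lower, against 13% and 8% of all genes, with a median of 0.26. Pou3f3 had 72.8 and 80.9 FPKM on polysomes, against 42.3 and 25.5 FPKM in total RNA. Nfix had 74.1 and 153 FPKM on polysomes, against 58.6 and 31.2 FPKM in total RNA. Tbr1, of the first deep-layer neurons, had 33.6 and 48.4 FPKM on polysomes, against 29.6 and 15.8 FPKM in total RNA. In these genes polysome library 1 was the higher polysome library and total library 1 the lower total library. The differences were 1.20 (SE 0.23, adjusted p = 0.00361) for Pou3f3, 1.30 (SE 0.35, adjusted p = 0.0172) for Nfix and 0.87 (SE 0.27, adjusted p = 0.0355) for Tbr1, and none was called without total library 1. The group median changed sign without polysome library 1 (-0.41) and without total library 1 (-0.19). Cux2 rose by 0.76 and Cux1, named after its value was seen, fell by 0.71 (adjusted p = 0.0497), although both mark upper-layer neurons.

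Genes of the neuronal cytoskeleton formed the largest neuronal group with calls, 13 higher and 4 lower of 39, against 13% and 8% of all genes. Their median was 0.53 (0.34 relative to all genes). Tubb3, a neuronal beta-tubulin, had 633 and 723 FPKM on polysomes, against 411 and 268 FPKM in total RNA. Dpysl5, a collapsin response mediator of axons, had 82.7 and 103 FPKM on polysomes, against 56.4 and 31.6 FPKM in total RNA. Crmp1, of the same family, had 176 and 228 FPKM on polysomes, against 119 and 71.3 FPKM in total RNA. The groups stood apart in each, by 1.02 (SE 0.28, adjusted p = 0.0201) for Tubb3, 1.11 (SE 0.26, adjusted p = 0.00907) for Dpysl5 and 1.11 (SE 0.28, adjusted p = 0.0138) for Crmp1. The 4 lower members, named after their values were seen, were the actin-sequestering thymosins Tmsb10 (-1.71) and Tmsb4x (-1.22), the profilin Pfn2 (-0.92) and Mtap1b (-0.96). Tmsb10 had 673 and 309.6 FPKM on polysomes, against 1533 and 1455 FPKM in total RNA. The counts higher and lower were 11 and 2, 8 and 3, 10 and 2, and 0 and 2 without polysome 0, polysome 1, total 0 and total 1. After median ratio rescaling 3 were higher and 4 lower.

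Of 39 synapse and vesicle genes, 4 were higher and 0 lower, against 13% and 8% of all genes. Syn1, a synaptic vesicle protein, had 8.98 and 9.23 FPKM on polysomes, against 4.44 and 2.33 FPKM in total RNA. Its groups did not overlap, at a difference of 1.25 (SE 0.24, adjusted p = 0.00434), and Syp and Stx1a rose by 1.07 and 0.79. The group had 9, 3, 6 and 1 members higher without polysome 0, polysome 1, total 0 and total 1, and its median of 0.33 changed sign, to -0.033, without polysome library 1.

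Surface and matrix proteins, made at the endoplasmic reticulum, showed almost no calls. Of 39 adhesion and guidance receptors, Ptprs was higher (1.11, SE 0.31, adjusted p = 0.0207) and Dab1, the intracellular adaptor of reelin signalling named after its value was seen, was lower (-0.74, SE 0.23, adjusted p = 0.0325). Ptprs had 113 and 103 FPKM on polysomes, against 60.3 and 40.2 FPKM in total RNA. Dab1 had 14.6 and 21.8 FPKM on polysomes, against 27.8 and 33.2 FPKM in total RNA. Of 27 tested extracellular matrix genes 0 were called in either direction, and the median was 0.09, or -0.02 after median ratio rescaling. Of 34 Notch and Wnt pathway genes 4 were higher (Maml1, Lrp5, Dvl2 and Ctnnb1), near the 13% of all genes, and 0 lower, and of 40 chromatin regulators 8 were higher and 0 lower. Kdm1a, a histone demethylase, had 151 and 123 FPKM on polysomes, against 68.8 and 62.5 FPKM in total RNA, and rose by 1.04 (SE 0.20, adjusted p = 0.00398). Ctnnb1, the beta-catenin of the Wnt pathway, had 647 and 382 FPKM on polysomes, against 237 and 303 FPKM in total RNA, and rose by 0.89 (SE 0.29, adjusted p = 0.0389). Without total library 1 no Notch or Wnt gene and 2 chromatin regulators were called.

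Of 18 histone and small chromatin protein genes, 2 were higher and 2 lower, near the 13% and 8% of all genes. Hmgb1, a DNA-bending protein, had 1530 and 1303 FPKM on polysomes, against 599.8 and 811 FPKM in total RNA, and rose by 1.02 (SE 0.29, adjusted p = 0.0254). Hmgb2 rose by 1.17, while the histone variant gene H2afv and Hmgn1, both named after their values were seen, fell by 1.60 and 1.30. Of 11 tested immediate early genes Ier5, Dusp1 and Jun were higher, by 1.07, 0.77 and 0.99, and Jund was lower, by 0.98. Jun had 27.0 and 39.5 FPKM on polysomes, against 19.4 and 13.1 FPKM in total RNA. Jund had 5.12 and 6.21 FPKM on polysomes, against 14.8 and 9.77 FPKM in total RNA, so the paralogs lay on opposite sides. All calls of both lists were lost without total library 1. That of Jund was also lost without polysome library 0, polysome library 1 or total library 0.

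Markers of other cell types held few calls, set against 13% of all genes higher and 8% lower. The microglial and ventral forebrain counts were near those shares. Of 9 microglial markers, C1qc rose by 0.95 (adjusted p = 0.0288) and Tyrobp fell by 1.50 (SE 0.25, adjusted p = 0.00186). Tyrobp had 4.42 and 3.36 FPKM on polysomes, against 13.5 and 12.1 FPKM in total RNA. The 9 markers summed to 61.3 and 44.6 FPKM on polysomes, against 41.4 and 44.0 FPKM in total RNA. Of 8 tested ventral forebrain markers 1 was called, higher. Of 10 tested endothelial, 10 meningeal, 9 blood and 8 choroid plexus markers 0 were called. Ttr, the leading choroid plexus transcript, had 460.3 and 949.7 FPKM on polysomes, against 514 and 186 FPKM in total RNA, so the fractions overlapped.

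The monosome pool of the same age was measured against the same total libraries, so its differences are not independent of those above. Of the 12123 genes 1042 were higher (8.6%) and 1200 lower (9.9%) in monosome than in total RNA, or 18.5% in either direction. Ribosomal protein mRNAs that were low on polysomes were high there. Rps12 had 11237 and 16353 FPKM in monosome RNA, against 4758 and 4634 FPKM in total RNA, a difference of 1.53 (adjusted p = 0.0251). Of the small subunit genes 29 of 33 were higher and 0 lower in monosome RNA, with a median of 1.25, and of the large subunit genes 33 of 47 were higher and 1 lower. Proteasome genes went the other way, with 24 of 31 lower, 0 higher and a median of -1.20. Psmd2 had 25.6 and 23.3 FPKM in monosome RNA, against 101 and 109 FPKM in total RNA (-2.06, adjusted p = 0.000104). Ferritin differed from the ribosomal genes. Ftl1 had 3703 and 1524 FPKM in monosome RNA, against 2610 and 2585 FPKM in total RNA, with overlapping libraries and no call (-0.13, adjusted p = 0.854). Lars2 was low in both pools, with 267 and 17.9 FPKM in monosome RNA.

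Many genes called at E13 were also called at birth. At P0, 812 genes were higher (6.7%) and 1184 lower (9.77%) on polysomes (16.5% in either direction). The libraries were not those of E13, but both ages shared 1 estimate of the spread of each gene. The calls at the ages are therefore not independent. Of the 1582 genes higher at E13, 611 (38.6%, and 75.2% of those higher at P0) were also higher at P0, and 0 were lower. Of the 970 lower at E13, 756 (77.9%, and 63.9% of those lower at P0) were also lower at P0, and 0 were higher. Rps12 had 198, 213 and 284 FPKM on polysomes at P0, against 2425, 2032 and 2560 FPKM in total RNA. Its polysome minus total difference was -2.41 at E13 and -3.34 at P0. Of the small subunit genes 12 were lower at E13 and 31 at P0 (medians -0.97 and -1.40), and of the large subunit genes 18 at E13 and 33 at P0. Proteasome genes called higher numbered 19 at E13 and 19 at P0 (medians 0.96 and 0.76). DNA replication genes called higher numbered 13 at E13 and 2 at P0, and neurite cytoskeleton genes 13 at E13 and 3 at P0.

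These counts do not show a difference between the ages, which was tested directly. In the test of the E13 minus P0 difference, 1 of 12123 genes was called (0.00825%), against 466 at an unadjusted p under 0.05. That gene was Snora65, a small nucleolar RNA (chr2:32963291-32963420) that lies within the ribosomal protein gene Rpl12 (chr2:32961559-32965345). It was listed at 0 in both polysome libraries at E13, against 44.2 and 167 FPKM in total RNA, and at P0 it was listed at 0 on polysomes, against 0.467, 0 and 0 FPKM in total RNA. The difference between the ages was -6.26 on the log2(FPKM + 1) scale (adjusted p = 3.46e-05), a size that depends on the pseudocount because the polysome libraries are at 0. Snord15b, named after its values were seen, was likewise listed at 0 on polysomes, against 5.63 and 7.08 FPKM in total RNA. In the cKO total libraries Snora65 had 0 and 411 FPKM, so its total level varied between libraries of 1 group.

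**Figure D5:**
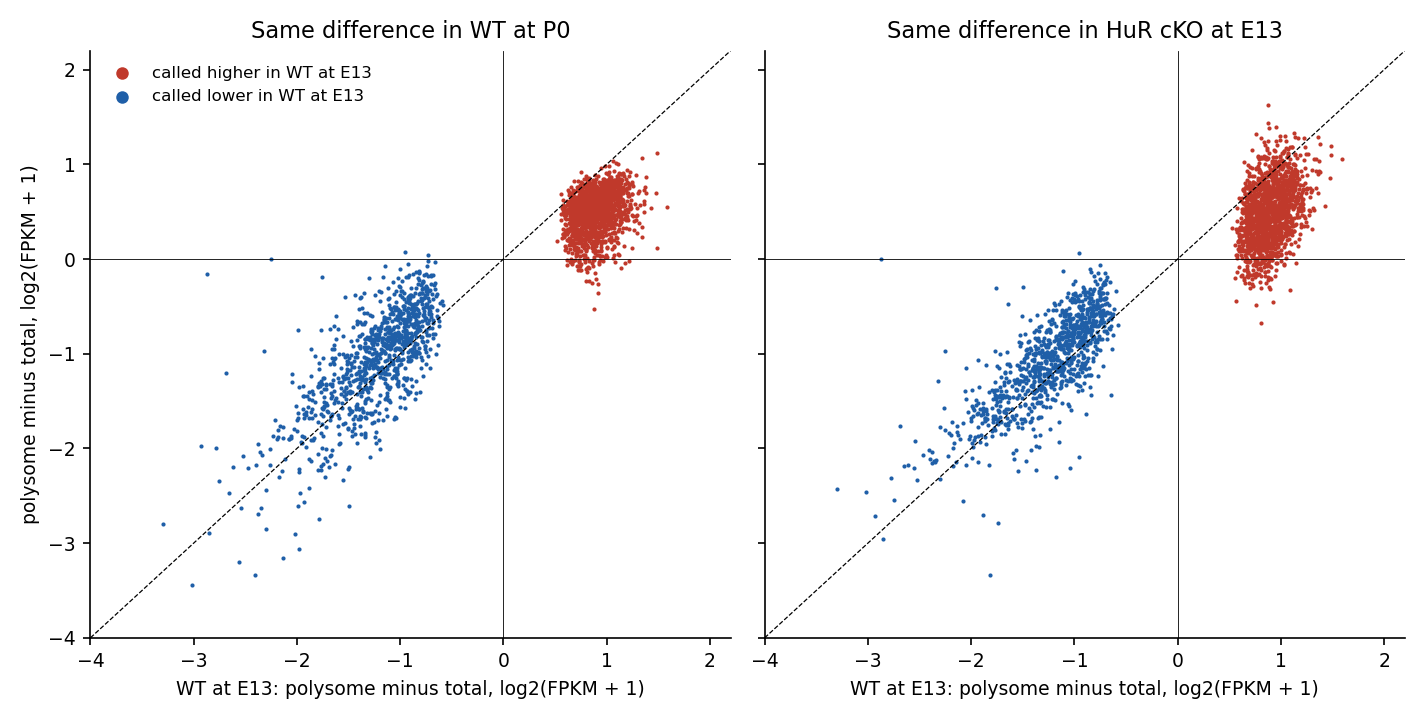
Polysome minus total difference in WT at P0 (left) and in the E13 libraries labelled HuR cKO (right), both against the same difference in WT at E13, in log2(FPKM + 1) units, with the genes called in WT at E13 coloured by direction. Genes called at E13 keep their side in most cases, and 3 points lie outside each panel.

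In the E13 libraries labelled HuR cKO, 334 of 12302 genes were higher (2.72%) and 634 lower (5.15%) on polysomes, or 7.87% in either direction. Of the genes higher in WT, 191 (12.1%) were also higher there, and of those lower in WT, 509 (52.5%) were also lower. These were 57.9% of the 330 genes higher and 81.6% of the 624 lower in the cKO among genes tested in both genotypes, with 0 called in the opposite direction. Elavl1 had 28.3, 29.9 and 30 FPKM in the cKO polysome libraries, against 55.4 and 42.5 FPKM in the cKO total libraries. The total libraries labelled cKO were thus not lower in whole-gene Elavl1 FPKM than those of WT, at 28.5 and 39.5 FPKM, and the genotype rests on the labels. The tables of WT and cKO libraries were scaled separately, so levels were not tested between them. For Elavl1 the polysome minus total difference was 0.58 in WT and -0.70 in those labelled cKO, and the difference between the genotypes was 1.29 (SE 0.44, unadjusted p = 0.00655, adjusted p = 1).

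No gene passed the limma test of the WT minus cKO difference over 12233 genes (0%), against 243 at an unadjusted p under 0.05. Proteasome genes called higher numbered 19 in WT and 10 in those labelled cKO (medians 0.96 and 0.78), and tRNA synthetases 12 in WT and 1 in those labelled cKO (medians 0.78 and 0.12). Psmd2 had a difference of 1.0 in WT and 0.10 in those labelled cKO (adjusted p = 0.908). In those libraries it had 74.1, 196 and 119.6 FPKM on polysomes, against 149.5 and 84.7 FPKM in total RNA, so that the groups overlapped. Small subunit ribosomal genes called lower numbered 12 in WT and 7 in those labelled cKO (medians -0.97 and -0.76). The ferritin genes fell in both, Ftl1 by 2.30 in WT and by 2.32 in those labelled cKO, and Fth1 by 2.02 and 1.90. The rank correlation between coding length and the difference was 0.27 in WT at E13, 0.23 in WT at P0 and 0.06 in the libraries labelled cKO at E13.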

How the data were processed

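Polyadenylated RNA of WT E13 neocortex was sequenced from a polysome pool and from the total lysate (2 libraries each). Per the submitters' processing notes, TopHat2 2.0.6, Bowtie2 2.0.5.0 and Cuffdiff were used with mm10 (GRCm38). The authors deposited FPKM values per gene, in 1 table of 15 WT libraries and 1 of 16 libraries labelled cKO. These are relative levels, so a large change in some genes shifts the others, and FPKM of short RNAs is imprecise.

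Of 23284 rows, 26 whose names had become dates or bare numbers were left out. Genes with a mean of at least 1 FPKM were tested on log2(FPKM + 1), so fold changes of low genes are understated, with limma 3.58.1 (R 4.3.3), its moderated test with an intensity trend and Benjamini-Hochberg adjustment over all genes, at an adjusted p under 0.05. All 6 WT groups shared 1 estimate of the spread (9 residual degrees of freedom). The test of genotype used 12 groups of both tables. Every adjusted p in the text comes from limma. The labels do not say that libraries came from separate animals, so p-values measure the spread between libraries, which may be technical.

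Members and lists were chosen with earlier results of these data known. Named genes were Elavl1, the 12 largest changes in each direction among called genes with at least 5 FPKM in the higher group, no overlap and a name that is not of a predicted or small RNA gene, up to 6 genes in each direction of the age and genotype tests, up to 6 members of each list by adjusted p, the direction with more calls first, and any member of lists of up to 16. Exceptions are marked in the text. Coordinates are from GENCODE M21 (GRCm38), to which 20887 table IDs matched by symbol and 1912 through a RefSeq synonym, and start sequences from RefSeq (GRCm38.p6). A list of 13 mitochondrially encoded genes had no match. The fits were tested on simulated data. Alternatives were another pseudocount, no filter or a stricter one, 2 rescalings, no trend, replicate blocks, the 4 libraries alone and each library left out. Tables and figures used Python 3.11.15, pandas 2.3.3, numpy 2.4.6, scipy 1.17.1 and matplotlib 3.10.9.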

Additional observations from a re-analysis of the deposited data

Results flagged for a closer look

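Snora65 was the 1 gene whose polysome minus total difference differed between E13 and P0 in the limma test of that difference itself, at -6.26 on the log2(FPKM + 1) scale. It was listed at 0 in every polysome library of both ages. In total RNA it had 44.2 and 167 FPKM at E13 and 0.467, 0 and 0 FPKM at P0.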

How the results depend on the processing

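In WT at E13, 1582 genes higher and 970 lower became 694 higher after median ratio rescaling, 6 higher and 215 lower (221 in all) with the 4 libraries fitted alone, and 164 to 1738 higher and 308 to 816 lower (472 to 2505 in all) with 1 library left out. Equal library sums gave 3653 calls for monosome RNA. The age test called 3 genes with no filter on low values and 1 to 5 with a library left out, and the genotype test called 1 with a pseudocount of 0.1 FPKM and 2 with no filter. No named gene called in the polysome comparison changed sign under any setting run. The labels do not say what shared replicate numbers mean. With the replicate number as a block, 2945 genes were called, although same-numbered polysome and total libraries deviated in opposite directions (correlation -0.538). Of the 174 named genes called, 171 were still called with this block, and Tbr1, Cct5 and Smarce1 were not. With the E13 numbers crossed, a pairing chosen after seeing the data, 3158 genes were higher and 1557 lower (4715 in all), 3980 were called at P0, 4160 in monosome RNA and 3 in the age test. With 1 library left out, group medians ranged from -0.35 to 0.0045 for the respiratory chain, from -0.41 to 0.84 for cortical neuron transcription factors, from -0.033 to 0.73 for synapse genes and from -0.031 to 0.60 for immediate early genes. The cause was not tested. With 2 libraries a group and no fragment counts, small differences were not resolved.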
